A study of Rattus norvegicus with 12 samples.

Results

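The transcripts of 40 cell cycle genes were followed in N27 cells, an immortalised rat line of dopaminergic neural origin. They were chosen by gene name, and 22 act in mitosis and 18 in DNA replication or its control. The arrays carried 36174 gene names. A probe carried the name of 39 of the 40 genes, and all 39 passed the filter on dim probes. The remaining gene, Cenpe, matched no gene name on the array and was not analysed here. Of the 39, 38 were well above background on all 12 arrays and Cenpf on 11, so the filter took no member that was bright in 1 group alone.

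Total RNA came from 12 cultures, each hybridised to a 1-colour Agilent array of 60-base probes. In 7 cultures the voltage-dependent anion channel gene Vdac1 had been removed by CRISPR (KO 1 to KO 7), and 5 were wild type (WT 3 and WT 5 to WT 8). The design text gives growth to 80% confluence for both groups. It names no other treatment, and the sources used here do not say whether the knockout cultures are 1 clone. The labels number the samples, and arrays numbered 1 to 4 (4 knockout, 1 wild type) stood apart from those numbered 5 to 8 (3 knockout, 4 wild type) when earlier results were seen. No source used here says what the numbers mean, so the difference between the number sets is described below with no test. The sets do enter tests of genotype, as a block, as a subset of arrays or as an interaction. Earlier results from these arrays were known when the sets were drawn, so p-values of those tests rest on a grouping not fixed beforehand.

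Cells copy their DNA in S phase and divide it in M phase, and the genes for these steps are transcribed in successive waves. Replication genes are classic targets of the E2F factors at the G1/S boundary, when the MCM helicase is loaded and fired at origins. Mitosis genes peak later, in G2 and M, through repression by the DREAM complex at cell cycle homology region (CHR) elements and activation by B-MYB and FOXM1. In bulk RNA, fewer cells in a phase and less RNA per cell cannot be told apart.

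Levels are log2 processed signal minus the array's 75th percentile, one probe per gene, so they compare arrays for a gene and not one gene with another. Vdac1 itself lay between 1.20 and 2.68 (median 2.26) in the knockout and between 3.07 and 3.61 (median 3.14) in the wild type, with no overlap. Within the knockout it also split by number, with 2.26 to 2.68 in KO 1 to KO 4 but 1.20 to 1.53 in KO 5 to KO 7. Of 8 markers of dopaminergic neurons, 3 were well above background on at least 5 arrays, among them Th on 12, while Ddc, Slc6a3, Foxa2 and En1 were on none. Of these 3, 1 was higher on every array numbered 5 to 8 than on every array numbered 1 to 4, beside 7.09% of all features. Of 6 neuronal markers, Eno2 was well above background on 12 arrays, Tubb3 on 7, Rbfox3 on 1, and Map2, Syp and Snap25 on none. Of 5 astrocyte and 6 oligodendrocyte markers, 0 were well above background on at least 5 arrays. On at least 5 arrays 1 of 5 microglia, 1 of 3 endothelial and 2 of 4 fibroblast markers were. No source used here says that the cultures were grown independently, so the p-values below cover only the spread among these 12 samples, which may be technical.

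Where a probe crosses a splice junction it reads spliced message, and the probes chosen for 4 mitosis genes do so on the rat build rn4 of the file headers. So do second probes of Ccna2, Mki67 and Rrm1, which are not shown. They are shown because these are the measured pieces of the cyclin B transcripts, of the anaphase activator Cdc20 and of the kinase Aurkb. The Ccnb1 probe lies at chr2:31574809-31575048 around 180 intron bases, the Ccnb2 probe at chr8:74892410-74893442 around 973, the Cdc20 probe at chr5:138913267-138914237 around 911 and the Aurkb probe at chr10:55801393-55801534 around 82. No strand is given for these coordinates, and no letters are marked.
Ccnb1: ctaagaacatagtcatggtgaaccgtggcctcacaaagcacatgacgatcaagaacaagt
Ccnb2: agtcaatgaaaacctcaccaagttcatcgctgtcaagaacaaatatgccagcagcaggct
Cdc20: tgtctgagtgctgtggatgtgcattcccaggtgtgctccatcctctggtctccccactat
Aurkb: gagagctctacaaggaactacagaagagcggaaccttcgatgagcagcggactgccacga

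Loss of Vdac1 changed no mitosis or replication gene past the threshold when all 12 arrays were compared. With limma and Benjamini-Hochberg adjustment over 14743 features, 0 of 21 mitosis and 0 of 18 replication genes passed an adjusted p of 0.05, where 1.09% of all features did. At an unadjusted p under 0.05, 3 mitosis genes were higher in the knockout (Plk1, Aurka and Ccnb2) and 1 replication gene was lower (E2f1), 4 of 39 where 15.6% of all features were under that p. The median log2 difference, knockout minus wild type, was 0.30 over the mitosis genes and -0.11 over the replication genes, beside 0.040 over all features. Of the mitosis genes 19 of 21 had a positive difference, against 6 of 18 replication genes. No member separated every knockout from every wild-type array, as 2.73% of all features did.

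**Figure D1:**
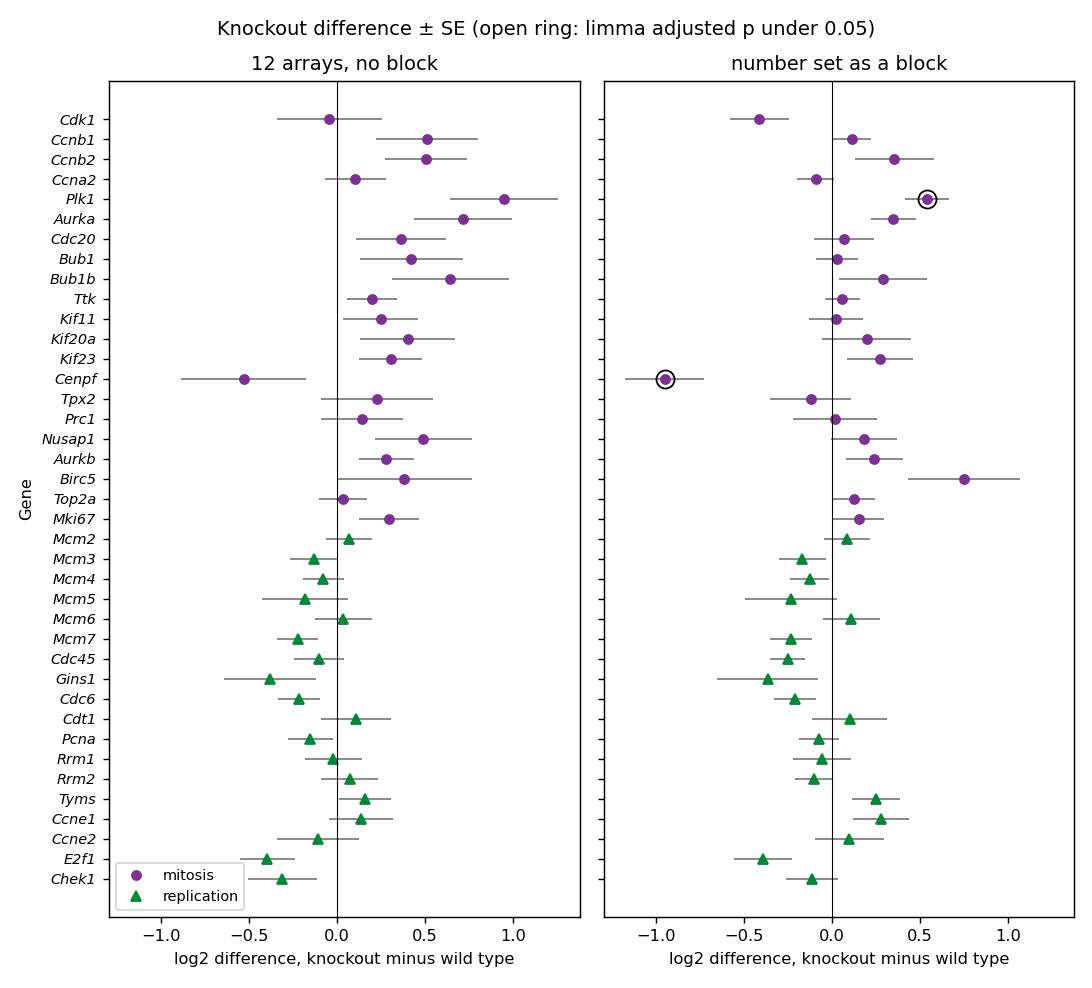
Log2 difference, knockout minus wild type, with its SE for the 39 measured genes, from limma on 12 arrays without a block (left) and with the number set 1 to 4 against 5 to 8 as a block (right). Circles are mitosis genes and triangles replication genes. Without the block 0 genes pass; with it Plk1 (0.54) and Cenpf (-0.95) do, as ringed.

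The genotypes were unevenly spread over the number sets, with 4 of 7 knockout but 1 of 5 wild-type arrays numbered 1 to 4. With the number set as a block, the mitosis median was 0.12 and the replication median -0.11, beside 0.051 for all features. In that fit Plk1 rose by 0.54 (SE 0.12, limma adjusted p = 0.0279) and Cenpf fell by 0.95 (SE 0.23, adjusted p = 0.0312). These 2 of 39 genes stand beside 5.09% of all features called. With normexp background correction in the same fit neither was called (Plk1 0.52, adjusted p = 0.0711; Cenpf -0.41, adjusted p = 0.461). Leaving out KO 3, KO 5, KO 6, KO 7, WT 5 or WT 8 left 0 members called, beside 322 to 540 of 14743 features. Leaving out WT 7 left Plk1 alone, beside 733 of 14743 features called. Leaving out WT 3 gave 5 members, beside 1471 of 14743 features. Without WT 3 all arrays numbered 1 to 4 are knockout, so that fit compares the genotypes within numbers 5 to 8 only.

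Among arrays numbered 5 to 8 alone, Birc5 rose by 1.31 (SE 0.21, limma adjusted p = 0.0175) and Cenpf fell by 1.14 (SE 0.26, adjusted p = 0.0491), where 4.67% of all features were called. Plk1 was 0.67 higher with an adjusted p of 0.0502. The medians were 0.20 for mitosis, -0.18 for replication and 0.075 for all features. Birc5 alone remained called without KO 5, KO 6, WT 6 or WT 7 in turn, beside 185 to 629 of 14743 features. Without KO 7, WT 5 or WT 8 in turn 0 members were called, beside 145 to 234 features. Among arrays numbered 1 to 4, which hold 1 wild-type array that is assumed to vary like the knockout arrays, 0 members were called, beside 0.353% of all features, and the medians were -0.074 and -0.048.

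The pattern that ran through the mitosis genes followed the sample numbers. Between arrays numbered 5 to 8 and those numbered 1 to 4, the median log2 difference was -0.62 over the mitosis genes, 0.083 over the replication genes and -0.012 over all features. Lower means were seen for 19 of 21 mitosis and 7 of 18 replication genes. For 11 of 21 mitosis genes every array numbered 5 to 8 lay below every array numbered 1 to 4, which held for 6.95% of all features. They were Cdk1, Ccnb1, Ccna2, Plk1, Aurka, Cdc20, Bub1, Bub1b, Ttk, Tpx2 and Nusap1. Among replication genes only Rrm2 was lower without overlap and only Chek1 higher, the latter beside 7.09% of all features. Fibroblast marker Pdgfra moved with the split too, well above background on 0 of 5 arrays numbered 1 to 4 and 6 of 7 numbered 5 to 8. It was 1 of 2 fibroblast markers bright enough to test, and was higher without overlap, beside 7.09% of all features. The other tested marker differed by -0.20 and overlapped. The summed signal of the 4 fibroblast markers overlapped (0.21 to 0.67 against 0.33 to 0.75 times the 75th percentile), with Dcn above background on no array. Their part in the result was not tested.

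**Figure D2:**
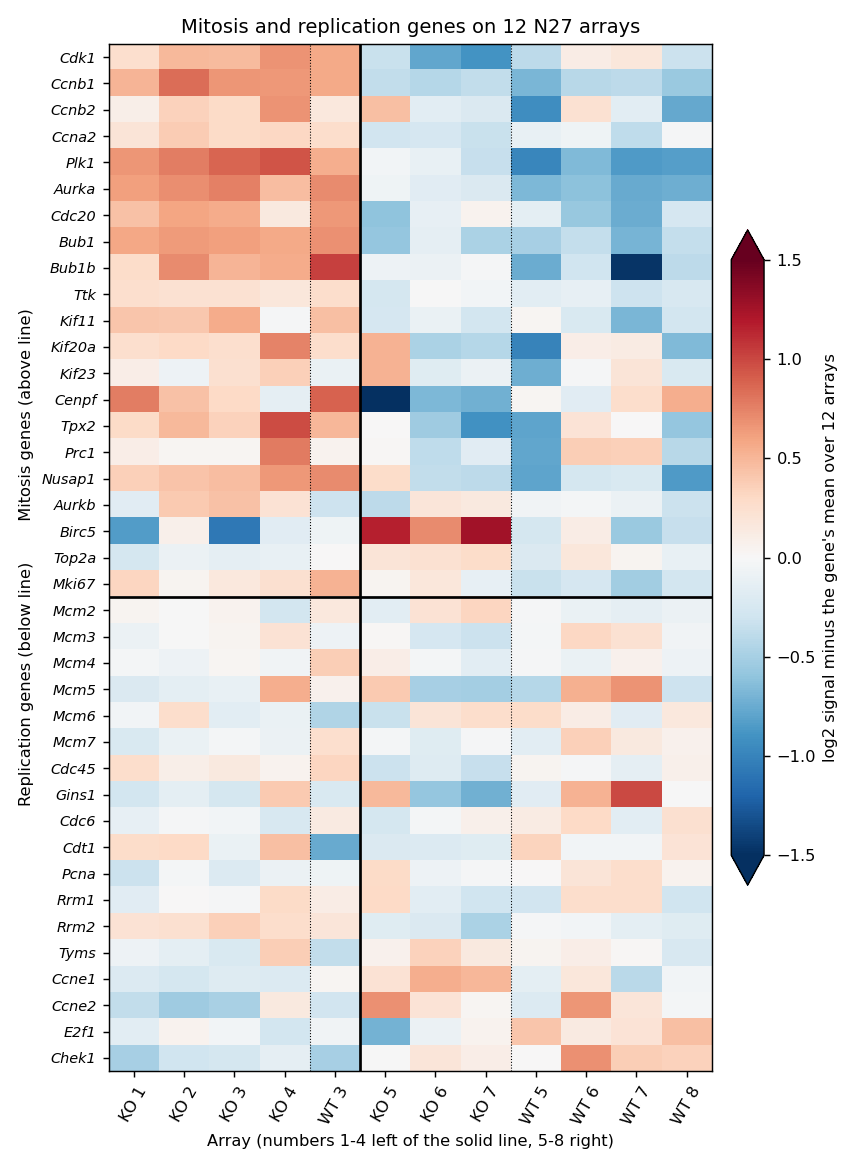
Log2 signal of each gene on each array minus the gene's mean over 12 arrays, with mitosis genes above the horizontal line and replication genes below it. Arrays numbered 1 to 4 stand left of the solid vertical line. Most mitosis rows turn from higher (red) to lower (blue) across that line, and Birc5 and Top2a do not.

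Taking each gene relative to its own mean, KO 1 to KO 4 had mitosis medians of 0.27, 0.40, 0.35 and 0.46, and WT 3 had 0.50. KO 5, KO 6 and KO 7 had -0.070, -0.16 and -0.22, and WT 5 to WT 8 had -0.49, -0.12, -0.31 and -0.35. The single wild-type array numbered 3 was thus with the knockout arrays of like number, above all others. The replication medians of the same arrays stayed between -0.14 and 0.18, and their ranges overlapped between the number sets. Neither the 75th percentile (142.7 to 691.8 against 120.1 to 596.1) nor the log2 ratio of upstream to downstream probes of a transcript (-1.89 to -1.73 against -1.87 to -1.72) separated the sets.

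**Figure D3:**
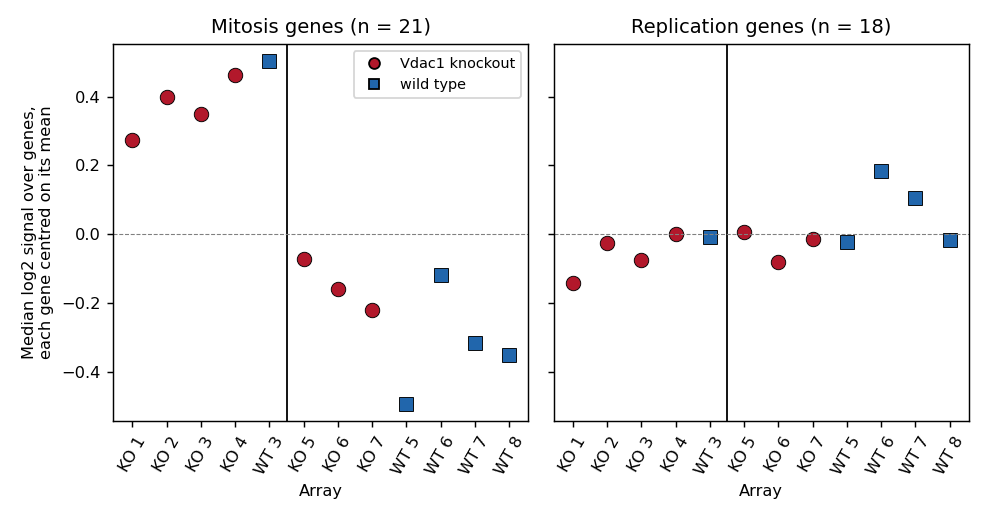
Median over 21 mitosis genes (left) and 18 replication genes (right) of log2 signal centred on each gene's mean, for each array; circles are knockout and squares wild type. The 5 arrays numbered 1 to 4, left of the line, lie at 0.27 to 0.50 in the mitosis panel and the other 7 at -0.49 to -0.070.

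Both genotypes showed the mitosis difference on separate arrays. In the knockout (KO 5 to KO 7 minus KO 1 to KO 4) the mitosis median was -0.57, and 14 of 21 genes were lower without overlap, beside 17.2% of all features. Birc5 and Top2a were higher without overlap there, beside 19.9%. In the wild type (WT 5 to WT 8 against the single array WT 3) the median was -0.72, and 15 of 21 genes were lower on all 4 arrays, beside 32.3%. The direction was lower in both genotypes for 18 of 21 mitosis genes, and opposite for Aurkb, Birc5 and Top2a. Replication genes were split, with 3 lower in both, 5 higher in both and 10 opposite, while the shares over all features were 33.0%, 33.1% and 33.9%. Within slides 1, 2 and 3 the mitosis medians were -0.75, -0.82 and -0.53, and the replication medians -0.021, 0.064 and 0.11. Slide 2 sets KO 1 to KO 3 against WT 5, so number and genotype cannot be told apart there. The only array numbered 1 to 4 is WT 3 on slide 1 and KO 4 on slide 3.

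**Figure D4:**
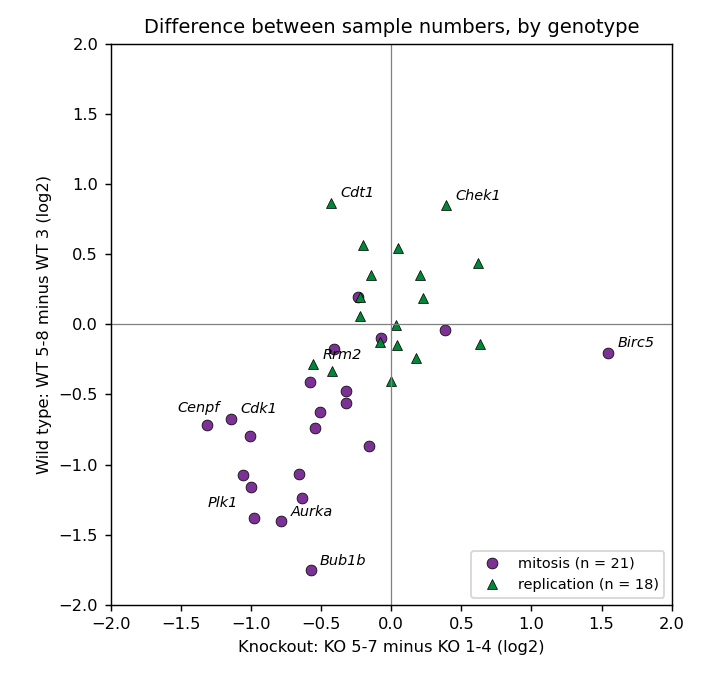
Log2 difference between sample numbers for each gene in the knockout (horizontal) and in the wild type (vertical), with mitosis genes as circles and replication genes as triangles. Of 21 mitosis genes 18 lie in the lower left quadrant, and Birc5 stands at 1.55 in the knockout and -0.20 in the wild type.

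Mitotic entry is driven by the kinase Cdk1 with cyclins A2, B1 and B2 (Ccna2, Ccnb1, Ccnb2) and by the kinases Plk1 and Aurka. This group had a median of -0.97 between the number sets, the lowest of the role groups, and a median of 0.51 between the genotypes. Plk1 gave 2.92, 3.02, 3.13 and 3.20 in KO 1 to KO 4, 2.80 in WT 3, 2.22, 2.15 and 1.90 across KO 5 to KO 7, and 1.27, 1.59, 1.40 and 1.43 in WT 5 to WT 8. All arrays numbered 1 to 4 were above the rest, and among the rest every knockout array was above every wild-type array. The Plk1 mean was 3.01 ± 0.16 (SD, n = 5) in numbers 1 to 4 and 1.71 ± 0.38 (SD, n = 7) in numbers 5 to 8, 2.47-fold lower. Its knockout difference on 12 arrays was 0.95 (SE 0.31, limma adjusted p = 0.151), and 1.22 (adjusted p = 0.0240) without WT 3. Without WT 3 every wild-type array is numbered 5 to 8 and 4 of 7 knockout arrays are numbered 1 to 4, so that value carries the difference by number.

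Aurka, which matures the spindle poles, fell into the same levels as Plk1, with 1.62 to 1.91 in KO 1 to KO 4, 1.86 in WT 3, 0.95 to 1.09 in KO 5 to KO 7 and 0.40 to 0.54 in WT 5 to WT 8. Its means by number were 1.81 ± 0.11 (SD, n = 5) and 0.70 ± 0.30 (SD, n = 7). A dimmer Aurka probe, well above background on 11 arrays, had a difference of -0.22 between the number sets where the chosen probe had -1.11. Cyclin B1 was tight within each set, at 0.72 to 1.05 in KO 1 to KO 4, 0.78 in WT 3, -0.22 to -0.15 in KO 5 to KO 7 and -0.47 to -0.17 in WT 5 to WT 8. Here the genotypes overlapped within numbers 5 to 8. For Cdk1, KO 5 to KO 7 lay at 2.53 to 3.09 and WT 5 to WT 8 at 3.04 to 3.60, overlapping, and the arrays numbered 1 to 4 at 3.68 to 4.10. Cyclin A2 differed by -0.49 between the number sets (-0.20 on its second probe) and cyclin B2 by -0.53 (-0.57 on its second probe). Of these, cyclin B2 overlapped between the sets.

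The spindle checkpoint kinases Bub1 and Ttk, their partner Bub1b and the anaphase activator Cdc20 formed the most uniform group. All 4 were lower without overlap in numbers 5 to 8, with a median of -0.94. Bub1 gave 0.90, 0.96, 0.94 and 0.89 in KO 1 to KO 4 and 1.00 in WT 3. KO 5, KO 6 and KO 7 gave -0.26, 0.18 and -0.15, and WT 5 to WT 8 gave -0.17, -0.03, -0.38 and -0.04. The 5 arrays numbered 1 to 4 were the highest and close together, and the genotypes overlapped among the 7 low ones. Bub1 means were 0.94 ± 0.043 (SD, n = 5) and -0.12 ± 0.18 (SD, n = 7), 2.09-fold apart.

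Bub1b, the BubR1 subunit of the checkpoint complex, gave -1.19, -0.75, -0.96 and -0.91 in KO 1 to KO 4, -0.44 in WT 3, -1.54, -1.55 and -1.49 across KO 5 to KO 7, and -2.21, -1.77, -2.93 and -1.86 in WT 5 to WT 8. Every knockout array numbered 5 to 7 was above every wild-type array numbered 5 to 8. Its knockout difference was 0.64 (SE 0.33, limma adjusted p = 0.370) on 12 arrays and 0.99 (adjusted p = 0.0396) without WT 3, which again carries the difference by number. The difference was 0.29 (adjusted p = 0.553) in the fit that blocks the number set, and 0.66 in numbers 5 to 8 alone (adjusted p = 0.220). A dimmer Bub1b probe, well above background on 6 arrays, differed by 0.03 between the genotypes and -0.21 between the number sets. Cdc20 and Ttk were lower by 0.82 and 0.39 in numbers 5 to 8.

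**Figure D5:**
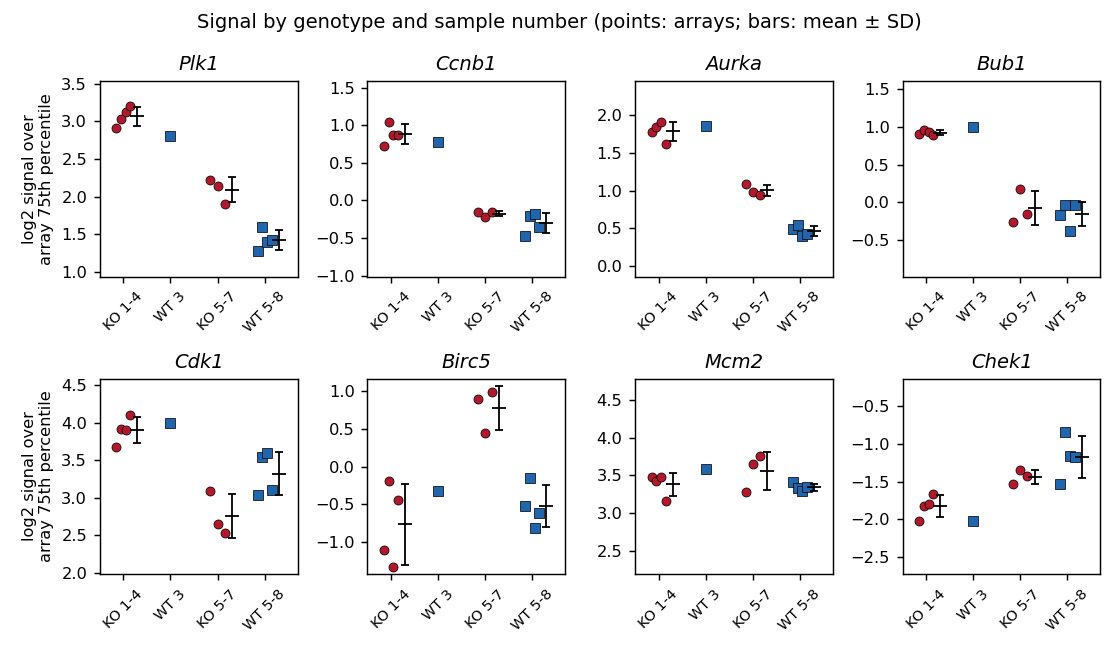
Log2 signal relative to the array's 75th percentile for 8 genes, by genotype and sample number; points are arrays, and bars give mean ± SD where a group holds more than 1 array. All panels span 2.6 log2 units. Plk1, Ccnb1, Aurka, Bub1 and Cdk1 are higher in both genotypes in numbers 1 to 4, Birc5 is high in KO 5 to KO 7, Mcm2 overlaps and Chek1 is higher in numbers 5 to 8.

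Spindle and midzone proteins comprise the motors Kif11, Kif20a and Kif23, the kinetochore protein Cenpf, and the microtubule proteins Tpx2, Prc1 and Nusap1. All 7 had lower means in numbers 5 to 8, with a median of -0.62, and Tpx2 and Nusap1 did not overlap. Nusap1, which bundles spindle microtubules, gave 1.00, 1.07, 1.11 and 1.30 in KO 1 to KO 4, 1.35 in WT 3, 0.92, 0.28 and 0.25 across KO 5 to KO 7, and -0.14, 0.38, 0.41 and -0.21 in WT 5 to WT 8. KO 5 lay closest to the high arrays. Its means were 1.17 ± 0.15 (SD, n = 5) and 0.27 ± 0.38 (SD, n = 7).

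Cenpf was the one mitosis gene beside Cdk1 with a negative knockout difference. Its levels were -1.77, -2.09, -2.24 and -2.67 in KO 1 to KO 4, -1.65 in WT 3, -4.05, -3.21 and -3.26 across KO 5 to KO 7, and -2.51, -2.70, -2.27 and -1.99 in WT 5 to WT 8. KO 5 to KO 7 were the 3 lowest arrays, and the signal of KO 5 was not well above background. The knockout difference was -0.53 (SE 0.35, limma adjusted p = 0.495) on 12 arrays. Within the knockout the difference by number was -1.32, and -1.04 without KO 5, where Cdk1 (-1.31), Tpx2 (-1.25) and Ccnb1 (-1.07) were lower.

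The chromosomal passenger proteins Aurkb and Birc5 (survivin), the decatenating enzyme Top2a and the proliferation marker Mki67 were mixed, with a median of 0.005 between the number sets and 2 genes lower and 2 higher. Birc5 gave -1.11, -0.19, -1.34 and -0.44 in KO 1 to KO 4, -0.33 in WT 3, 0.90, 0.45 and 0.99 across KO 5 to KO 7, and -0.52, -0.15, -0.82 and -0.62 in WT 5 to WT 8. Only KO 5 to KO 7 were above 0, and the other knockout arrays overlapped the wild type. The interaction of genotype and number set was 1.75 (limma adjusted p = 0.100). Top2a was likewise higher in KO 5 to KO 7 (1.55 to 1.62) than in KO 1 to KO 4 (1.09 to 1.26), and the wild type spanned 1.13 to 1.52. Mki67 differed by -0.44 between the number sets on its chosen probe and by -0.30 to -0.52 over its 4 probes.

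Promoter letters were read for the members because the 2 classes differed by number in unlike ways. The RefSeq promoter table (GRCr8) held 31 of the 39 genes. Missing were Ccna2, Tpx2, Aurkb, Mcm4, Cdc6, Rrm2, Ccne2 and E2f1. Windows ran from 250 bases before the start to 30 after it. The searched letters, on both strands, were TTTGAA for a CHR element, CCAAT, and for an E2F site any of TTTCCCGC, TTTCGCGC, TTTGCCGC and TTTGGCGC. The CHR letters were in 13 of 18 mitosis promoters (72.2%) and 1 of 13 replication promoters (7.69%), beside 17.4% of 33469 promoters. E2F letters were in 1 mitosis promoter (Cdk1, 5.56%) and 9 replication promoters (69.2%), beside 2.002%. CCAAT was in 15 mitosis (83.3%) and 8 replication promoters (61.5%), beside 36.2%. Within the mitosis genes the median difference by number was -0.53 over the 13 with CHR letters and -1.06 over the 5 without. The latter include Aurka, and starts of a gene outside its window were not searched. Matches describe the letters and do not show a bound site.

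Shown are the members with the largest differences by number in each class that have a promoter in the table (Plk1 and Aurka, Chek1 and Cdc45), and Cdc20 and Mcm5, chosen after their motifs were seen. Capitals mark matches on either strand. In Plk1 the CHR letters begin at base 7 after the start, with CCAAT 38 bases before it. In Cdc20 the CHR letters lie 51 bases before the start between CCAAT matches at 86 and 41. The Aurka window holds none of the letters. An atg follows soon after its start, and whether this window is the gene's promoter was not tested. Chek1 has E2F letters on the opposite strand 28 bases before the start. Cdc45 has 4 CCAAT matches, 2 on each strand. In Mcm5 E2F matches on opposite strands overlap, beginning 213 and 209 bases before the start, and another lies 8 bases before it. The windows are chr1:186147408-186147687 (plus strand), chr3:181560740-181561019 (minus), chr5:137255770-137256049 (minus), chr8:44629814-44630093 (minus), chr11:95689928-95690207 (plus) and chr19:13488563-13488842 (plus), in the order printed.
Plk1: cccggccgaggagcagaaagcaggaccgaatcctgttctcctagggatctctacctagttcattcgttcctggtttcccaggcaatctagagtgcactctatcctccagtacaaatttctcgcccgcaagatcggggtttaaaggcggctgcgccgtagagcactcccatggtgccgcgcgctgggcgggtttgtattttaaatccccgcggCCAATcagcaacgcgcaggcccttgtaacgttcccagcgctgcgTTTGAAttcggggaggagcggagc
Aurka: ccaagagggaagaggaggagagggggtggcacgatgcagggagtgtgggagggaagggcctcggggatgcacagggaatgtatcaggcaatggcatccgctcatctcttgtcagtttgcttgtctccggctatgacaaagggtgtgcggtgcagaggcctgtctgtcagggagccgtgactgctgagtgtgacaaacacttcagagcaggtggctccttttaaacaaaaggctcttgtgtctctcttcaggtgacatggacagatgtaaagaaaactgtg
Cdc20: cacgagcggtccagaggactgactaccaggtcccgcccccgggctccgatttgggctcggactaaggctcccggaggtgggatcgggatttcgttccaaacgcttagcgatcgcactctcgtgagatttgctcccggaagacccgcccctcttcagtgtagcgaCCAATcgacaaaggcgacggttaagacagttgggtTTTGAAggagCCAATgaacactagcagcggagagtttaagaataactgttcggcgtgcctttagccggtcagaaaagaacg
Chek1: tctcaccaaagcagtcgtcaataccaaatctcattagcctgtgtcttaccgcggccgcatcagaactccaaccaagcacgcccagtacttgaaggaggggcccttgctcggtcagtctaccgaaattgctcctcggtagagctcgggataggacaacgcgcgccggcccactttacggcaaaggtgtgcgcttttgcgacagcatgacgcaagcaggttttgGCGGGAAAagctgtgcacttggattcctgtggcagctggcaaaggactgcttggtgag
Cdc45: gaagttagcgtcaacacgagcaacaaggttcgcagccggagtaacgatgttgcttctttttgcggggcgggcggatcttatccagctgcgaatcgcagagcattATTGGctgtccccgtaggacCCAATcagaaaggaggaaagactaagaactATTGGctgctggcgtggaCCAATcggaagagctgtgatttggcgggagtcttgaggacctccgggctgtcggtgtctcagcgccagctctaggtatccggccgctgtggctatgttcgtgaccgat
Mcm5: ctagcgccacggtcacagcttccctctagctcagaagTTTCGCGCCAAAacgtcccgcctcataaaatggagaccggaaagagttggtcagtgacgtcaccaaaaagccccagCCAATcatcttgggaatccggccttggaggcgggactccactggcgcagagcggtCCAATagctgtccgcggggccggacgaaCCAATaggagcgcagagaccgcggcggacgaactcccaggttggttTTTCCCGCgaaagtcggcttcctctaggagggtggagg

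Replication genes varied less. The range over the 12 arrays had a median of 0.73 log2 units over replication genes, 1.52 over mitosis genes and 1.23 over all features. The helicase group comprises the MCM ring (Mcm2 to Mcm7) and its activators Cdc45 and the GINS subunit Gins1. Its median was -0.008 between the number sets and -0.12 between the genotypes. Cdc45 gave 3.21, 3.05, 3.10 and 3.01 in KO 1 to KO 4, 3.28 in WT 3, 2.63, 2.76 and 2.61 across KO 5 to KO 7, and 2.998, 2.93, 2.82 and 3.03 in WT 5 to WT 8. KO 5 to KO 7 were its 3 lowest arrays, and WT 8 overlapped the arrays numbered 1 to 4. Its means were 3.13 ± 0.11 (SD, n = 5) and 2.83 ± 0.17 (SD, n = 7).

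Gins1 gave 1.20, 1.34, 1.21 and 1.88 in KO 1 to KO 4, 1.25 in WT 3, 1.97, 0.90 and 0.76 across KO 5 to KO 7, and 1.31, 2.004, 2.48 and 1.48 in WT 5 to WT 8. Its high arrays, KO 4, KO 5, WT 6 and WT 7, are the 4 arrays of slide 3, which was scanned on another day than slides 1 and 2. The knockout difference was -0.38 (SE 0.26, limma adjusted p = 0.508). Gins1, Mcm5 and Rrm1 were higher on slide 3 than on every other array (by 0.90, 0.80 and 0.42), beside 3.78% of all features, and Mcm2 was lower (by 0.25), beside 2.54%. Mcm5 was 3.45, 3.29, 3.43 and 3.57 on slide 3 (KO 4, KO 5, WT 6 and WT 7) and 2.39 to 2.96 elsewhere. Mitosis genes differed by slide as well, though 0 of 21 did so without overlap. Slide 3 minus the other slides, the checkpoint group had a median of -0.44 and the spindle and midzone group 0.40. The median over all features was -0.054. Cdc20 differed by -0.66 and Prc1 by 0.57, where their differences by number were -0.82 and -0.34. Slide 3 also had the 4 lowest 75th percentiles, 120.1 to 189.7 against 219.9 to 691.8. Their part in the result was not tested. Mcm2, Mcm3, Mcm4, Mcm6 and Mcm7 differed by -0.082 to 0.17 between the number sets and overlapped. A second Mcm2 probe had a difference of 0.41 where the chosen probe had 0.013.

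Licensing of origins rests on Cdc6 and Cdt1, which load the MCM ring. Cdc6 gave -0.17, -0.07, -0.08 and -0.29 in KO 1 to KO 4, 0.09 in WT 3, -0.31, -0.08 and 0.03 across KO 5 to KO 7, and 0.07, 0.26, -0.20 and 0.19 in WT 5 to WT 8. These overlapped by genotype and by number, with a knockout difference of -0.22 (SE 0.12, limma adjusted p = 0.403). Cdt1 was the one member whose knockout difference itself differed between the number sets, by -1.30 (SE 0.27, limma interaction adjusted p = 0.0401), where 1.94% of all features were called. Its levels were -2.17, -2.15, -2.55 and -2.003 in KO 1 to KO 4, -3.20 in WT 3, -2.67, -2.66 and -2.63 across KO 5 to KO 7, and -2.12, -2.49, -2.49 and -2.25 in WT 5 to WT 8. WT 3 was the lowest array, and that test holds it as the only wild-type array numbered 1 to 4. A call of 1 in 39 tested members is near the share over all features, so it is not read as particular to Cdt1. The call was lost with normexp background correction and without KO 1, KO 2, KO 4, KO 5, KO 6, KO 7, WT 5 or WT 8 in turn.

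The sliding clamp Pcna, the ribonucleotide reductase subunits Rrm1 and Rrm2 and the thymidylate synthase Tyms had a median of 0.043 between the number sets. Rrm2 gave 4.82, 4.84, 4.96 and 4.87 in KO 1 to KO 4, 4.79 in WT 3, 4.42, 4.39 and 4.13 across KO 5 to KO 7, and 4.58, 4.56, 4.45 and 4.43 in WT 5 to WT 8. It was the one replication gene that ordered the arrays as the mitosis genes did, with means of 4.86 ± 0.065 (SD, n = 5) and 4.42 ± 0.15 (SD, n = 7), and its second probe differed by -0.32. Tyms gave -0.44, -0.51, -0.60 and 0.00 in KO 1 to KO 4, -0.74 in WT 3, -0.30, -0.02 and -0.22 across KO 5 to KO 7, and -0.32, -0.26, -0.35 and -0.61 in WT 5 to WT 8. Its groups overlapped both ways, and the knockout difference was 0.16 (SE 0.15, limma adjusted p = 0.646).

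The G1/S controls are the E cyclins Ccne1 and Ccne2, the transcription factor E2f1 and the checkpoint kinase Chek1. All 4 had higher means in numbers 5 to 8, with a median of 0.40. Chek1 gave -2.03, -1.82, -1.79 and -1.67 in KO 1 to KO 4, -2.03 in WT 3, -1.53, -1.34 and -1.43 across KO 5 to KO 7, and -1.53, -0.84, -1.16 and -1.18 in WT 5 to WT 8. The 5 arrays numbered 1 to 4 were all below the rest, with means of -1.87 ± 0.16 (SD, n = 5) and -1.29 ± 0.25 (SD, n = 7). E2f1 gave 1.42, 1.63, 1.53 and 1.31 in KO 1 to KO 4, 1.53 in WT 3, 0.87, 1.49 and 1.63 across KO 5 to KO 7, and 1.996, 1.71, 1.78 and 2.03 in WT 5 to WT 8. WT 5 to WT 8 were its 4 highest arrays and WT 3 lay among the knockout arrays. The knockout mean was 1.41 ± 0.27 (SD, n = 7) and the wild-type mean 1.81 ± 0.21 (SD, n = 5), a difference of -0.40 (SE 0.16, limma adjusted p = 0.237).

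Further genes of the same pathways were counted on wider lists. Of 59 tested genes of a further mitosis list, 0 were called on 12 arrays by limma (9 higher and 1 lower at an unadjusted p under 0.05, beside 15.6% of all features), with a median knockout difference of 0.27. The smallest p was that of Cenpa, the centromeric histone, at 0.87 (adjusted p = 0.0755). Between the number sets this list had a median of -0.39, with 50 of 59 genes lower, beside 51.0% of all features, and 13 lower without overlap, beside 6.95%. With the number set as a block Cenpa rose by 0.65 (adjusted p = 0.0453) and Tacc3, a spindle protein, fell by 0.42 (adjusted p = 0.0334). These 2 of 59 stand beside 5.09% of all features called in that fit. Of 50 further replication genes 0 were called on 12 arrays (4 higher and 2 lower at an unadjusted p under 0.05), the smallest p being that of the repair gene Brca2 (-0.64, adjusted p = 0.0746). Their medians were 0.011 between the genotypes and -0.058 between the number sets.

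A list of 21 tested G1 cyclins, cell cycle inhibitors and pocket proteins had a median of 0.39 by number, with 15 genes higher and 6 lower. In the wild type alone 12 were higher and 9 lower. Cdkn2b, Rb1 and Btg2, all restraints on the cycle, were higher without overlap in numbers 5 to 8, 3 of 21 beside 7.09% of all features. Cdkn1c (p57) was lower, 1 of 21 beside 6.95%. On 12 arrays 1 of the 21 was called, beside 1.09% of all features: Gadd45a, a stress-induced growth arrest gene, fell by 0.86 (SE 0.17, limma adjusted p = 0.0409). It was 1.25 to 1.62 in all knockout arrays and 1.55 in WT 3, against 2.24 to 2.64 in WT 5 to WT 8. With the number set as a block Gadd45a and Cdkn1c were called lower, 2 of 21 beside 5.09% of all features. In numbers 5 to 8 alone these 2 and Cdkn1a (p21) were called lower, 3 of 21 beside 4.67%. There Cdkn1a fell by 1.40 (limma adjusted p = 0.03001). Cdkn1c, named after its values were seen, gave 0.25 to 0.50 in KO 1 to KO 4, 1.61 in WT 3 and -2.83 to -1.57 in WT 5 to WT 8, and was not well above background in KO 5 to KO 7. For a bound, each of those 3 arrays was given the higher of its lowest signal well above background and the probe's own signal. Against the mean of these values, KO 1 to KO 4 were at least 53.3-fold higher and WT 5 to WT 8 at least 9.31-fold higher.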

How the data were processed

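Expression was measured in 12 N27 cultures on 3 array slides, each slide holding both genotypes. Per the submitters' processing notes images were read with Agilent Feature Extraction 10.7, and per the file headers with 10.1.1.1. Spot intensity in the scanner files is background-treated by that software, per the file headers. Other columns there include the mean signal and median background of each spot, used for normexp, and yes-or-no spot flags. The deposited value table holds log2 values that are quantile normalized, with a median of 3.06 in each column, and its Spearman correlation with the scanner signal across probes was at least 0.9986. Between 42.3% and 53.8% of an array's spots stood well above background, and 0 spots were saturated. Precision is limited by the number of arrays.

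Control spots and spots marked as uneven or outlying were left out, spots of a probe were averaged as log2 processed signal, and arrays were scaled by subtracting their own 75th percentile. The gene name's brightest probe stood for it. Features well above background on at least 5 of 12 arrays were tested with limma 3.58.1 in R 4.3.3 (two-sided, Benjamini-Hochberg over 14743 features, adjusted p under 0.05), after the fit was checked on simulated data. The members, role groups and further lists were chosen with earlier results of these data known. A member has all its values given where it has the largest genotype or number-set difference of its role group or was called. Of a further list up to 4 called genes are named, or the one with the smallest p. Outside that rule, Pdgfra, Cdkn2b, Rb1 and Btg2 were not called and are named for their separation by number. Alternatives were normexp background correction, quantile and median scaling, other filters and probe choices, the value table, blocks, single slides and each array left out. Motif searches used Python 3.11.15.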

Additional observations from a re-analysis of the deposited data

Results flagged for a closer look

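WT 3 stood apart from the other 4 wild-type arrays in 5 mitosis genes: Ccnb1 (0.78, next array -0.17), Plk1 (2.80, next 1.59), Aurka (1.86, next 0.54), Bub1 (1.00, next -0.03) and Mki67 (2.70, next 1.93). It is also the only wild-type array numbered 1 to 4. Among knockout arrays KO 4 was high in Prc1 (1.84, next 1.16) and KO 5 was low in E2f1 (0.87, next 1.31). These 7 came from 78 gene and group combinations, of which chance gives about 1 in 20. The knockout difference of Cdt1 differed between the number sets by -1.30, tested as an interaction, and WT 3 is the single wild-type array on one side of it.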

How the results depend on the processing

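Under the settings tried, 0 replication genes were called between the genotypes. Mitosis genes called numbered 2 with the number set as a block (also with quantile normalization), 0 when normexp was added to the block, 3 with slide as a further block, 2 in numbers 5 to 8, 13 within slide 2 (3 knockout arrays numbered 1 to 3 against the single wild-type array WT 5, where 13.5% of all features were called), and 0 to 3 with an array left out, the 3 being without WT 3. The fit with slide as a further block called 1631 of 14743 features, and the unblocked fit without WT 3 called 650. With the number set as a block 0 to 5 members were called with an array left out, and in numbers 5 to 8 from 0 to 1. The 5 were without WT 3, where 1471 of 14743 features were called. The Cdt1 interaction count was 0 with normexp and 0 to 1 with an array left out. The mitosis median between genotypes was -0.074 in numbers 1 to 4, -0.23 within slide 1 and 0.82 within slide 2, and 0.27 to 0.42 with an array left out. The replication median was -0.20 with quantile normalization (-0.18 with the block as well), -0.21 in the value table, -0.18 in numbers 5 to 8, and -0.13 to -0.073 with an array left out. By number, the mitosis median was -0.74 with median scaling, where that of all features was -0.14, -0.75 within slide 1, -0.82 within slide 2, and -0.71 to -0.61 with an array left out. The replication median by number was -0.041 with median scaling, -0.021 within slide 1, and 0.041 to 0.11 with an array left out. Cdk1 turned to 0.79 within slide 2. Slide 2 sets KO 1 to KO 3 against WT 5, so genotype and number set cannot be told apart there. Its mitosis medians of 0.82 and -0.82 are 1 comparison with the sign turned. The cause of the other shifts was not tested. Of 1208 alternative values for single members, 1063 kept direction and side of the threshold, 24 passed it newly, 120 changed sign with no call and 1 reversed.

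The labels' numbers 3, 5, 6 and 7 occur in both groups, with correlations of deviations of 0.46, -0.11, 0.073 and 0.050, so they share a number and are not taken as pairs. With the sample number as a replicate block 0 members were called, with medians of 0.14 (mitosis) and -0.13 (replication), and 0 features overall by limma (1538 at an unadjusted p under 0.05). Called features numbered 161 on 12 arrays, 25 with normexp, 0 with no filter (1981 at an unadjusted p under 0.05), 404 in the fit that blocks slide, 751 with the number set as a block and 14 to 650 with an array left out.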
